A study of Cynara cardunculus with 12 samples.

Results

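Cardoon (*Cynara cardunculus*) callus was compared between the wild type (WT) and 3 transgenic lines, and the genes described here are those that were all but silent in WT and read in every sample of every line. A gene entered the set when it had at most 3 raw counts in each of the 3 WT samples and at least 10 in each of the 9 line samples. 4 long runs of consecutive gene identifiers, which together hold 4680 of the 26505 genes in the count table, were left out. The rule returned 17 genes of 26505, and another 3 genes that met the counts lay inside the excluded runs. The genes were chosen by their raw counts in WT and the lines, so their rise from WT to the lines is given as a description without a test. The order of the lines was not part of the rule, and differences between lines were tested.

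WT callus was undifferentiated, grown in the dark and induced from leaves of the "Spagnolo" genotype, and was at its XXII sub-culture. L1, L18 and L24 are independent transformants of such callus, at their XIV sub-culture, that carry *p35S::AtMYB4*, the *Arabidopsis* MYB4 coding sequence behind the constitutive promoter of the cauliflower mosaic virus. L1 and L24 came from infection with the AGL1 strain of *Agrobacterium* and L18 with EHA105, and the lines were kept on phosphinothricin and cefotaxime. No empty-vector line was among the samples, so the transgene, the selection agents and the history of the cultures cannot be told apart. Each line is 1 transformation event, and RNA was taken in triplicate from the WT and from each line. The spread given below is that between these samples, and whether those of a group were separate cultures is not stated. Library totals ran from 12505275 to 19509803 counts, and WT, at 13807280 to 15515203, was inside that range. Counts were scaled to a common library size (TMM, trimmed mean of M-values); on that scale 3 raw counts equal 2.17 to 3.76 normalized counts. The elongation factor gene used as reference in the study, *Ccrd_012208*, averaged 106500 normalized counts in WT and 74930 to 102300 in the lines. The table lists cardoon genes only, and the level of *AtMYB4* itself was not analysed here. By RT-qPCR, the study measured its expression as lowest in L1 and highest in L18.

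MYB4 of *Arabidopsis* is an R2R3-type MYB protein that represses genes of the phenylpropanoid pathway, which supplies precursors of lignin and of many phenolic compounds. Callus is a mass of dividing, unorganised cells kept growing by hormones in the medium, and many genes that belong to particular organs or stages are not transcribed in it. A count of up to 3 in a library of this size is close to the limit of what sequencing can show, and a gene at that level may be silent or transcribed in a small fraction of cells; in bulk RNA, fewer cells expressing a gene and less RNA per cell cannot be told apart.

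In WT the 17 genes together had 19, 18 and 12 raw counts in the 3 samples. 4 of them had no count in any WT sample, namely *Ccrd_001240*, *Ccrd_013389*, *Ccrd_013750* and *Ccrd_025508*. Another 3 had at most 1 count per sample, and 7 reached the ceiling of 3 counts in at least 1 sample. In the lines the lowest single count was 11. The genes were of middling to low level there, with median FPKM (fragment counts scaled for exonic length and library size) of 5.91 in L1, 5.19 in L24 and 4.84 in L18, beside 10.2 to 10.7 for all genes tested. The range was wide, from 0.190 for *Ccrd_006808* in L18 to 61.3 for *Ccrd_004741* in L1. 5 genes averaged 50 normalized counts or more in every line. Replicates of a line spread more than is usual in the table, with a median coefficient of variation of 25.5% to 30.0% in the 3 lines, beside 14.6% to 18.3% for the tested genes. Counting error weighs more at low counts, and the tested genes were not matched to the set by level.

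**Figure D1:**
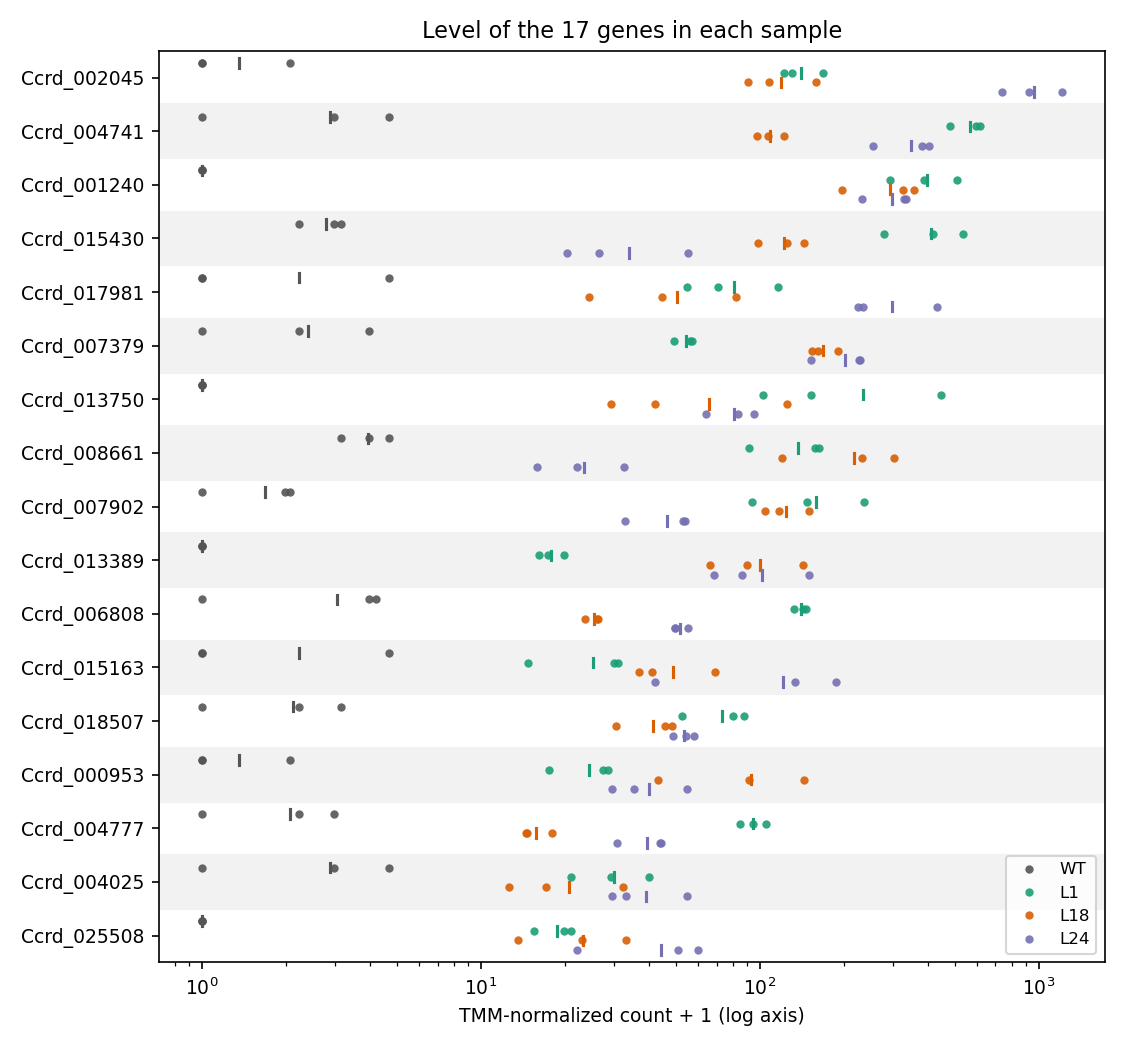
Normalized count + 1 of the 17 genes on a log axis, with WT, L1, L18 and L24 in separate colours, a point for each of the 12 samples and a vertical tick at the mean of each group. The WT points lie on the left and all line points to their right, as the rule requires, and the means of the lines part from each other by up to 12.4-fold.

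The set is the overlap of larger sets, and most genes that were silent in WT and on in 1 line were not on in all. Outside the excluded runs, 162 genes at or below the WT ceiling had at least 10 counts in every L1 sample, 74 in every L18 sample and 100 in every L24 sample. L1 and L18 shared 38 of these, L1 and L24 shared 61, and L18 and L24 shared 24. The 17 genes on in all lines are 10.5% of the L1 set, 23% of the L18 set and 17% of the L24 set. These sets share the WT samples, so their overlap is given as a count alone. The same thresholds turned around, with at least 10 counts in every WT sample and at most 3 in every line sample, were met by 19 genes.

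**Figure D2:**
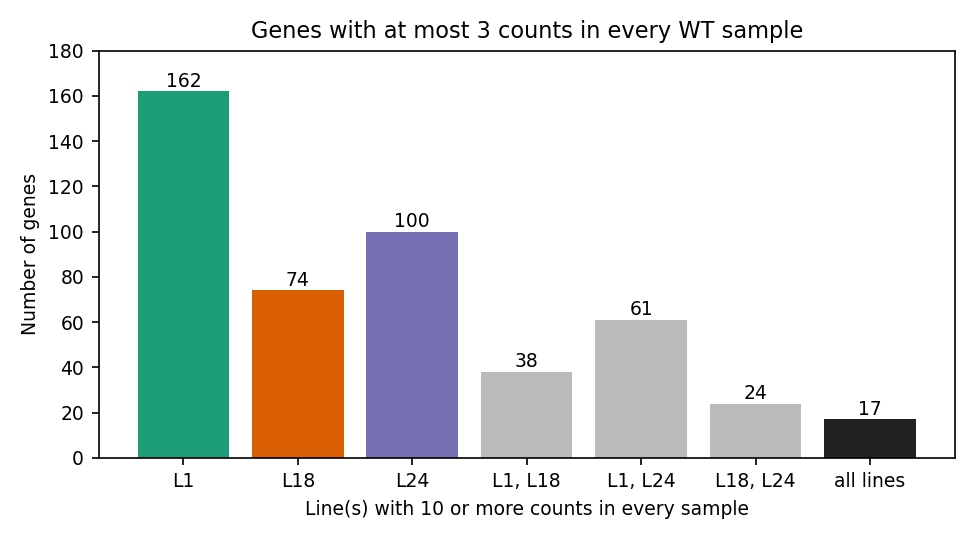
Number of genes outside the excluded runs with at most 3 counts in each WT sample and at least 10 counts in every sample of the line or lines named on the axis. L1 has the largest set with 162 genes, L18 the smallest single-line set with 74, and 17 remain when all 3 lines are required.

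Being on in every line did not mean being on at the same level. Between L1 and L18, 8 of the 17 genes differed (edgeR quasi-likelihood test, adjusted p of 0.05 or less), beside 33.0% of all 20024 genes tested. 5 were higher in L1 (16.2% of all genes) and 3 lower (16.8%). Between L24 and L18, 9 differed, beside 30.7% of all genes, with 5 higher in L24 (14.3%) and 4 lower (16.4%). Between L1 and L24, 11 differed, beside 20.6%, with 6 higher in L1 (10.8%) and 5 lower (9.73%). The counts for the 2 pairs with L18 were therefore 47.1% and 52.9% of the set, and the count for L1 with L24 was 64.7%. 13 of the 17 differed in at least 1 pair, beside 48.6% of all genes, and *Ccrd_004741*, *Ccrd_004777*, *Ccrd_006808* and *Ccrd_015430* differed in every pair, beside 4.35%. Outside the excluded runs, 13944 tested genes had at least 10 counts in every line sample, whatever their WT level. These were called at 30.99%, 29.54% and 19.59% in the same order of pairs. The replicates of both lines did not overlap for 9, 9 and 14 of the 17 genes, beside 47.7%, 41.8% and 37.6% of all genes. The 3 comparisons share samples pairwise and are not independent of each other.

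The median absolute difference of the 17 genes on the log2 scale was 0.95 between L1 and L18, 1.23 between L24 and L18 and 1.53 between L1 and L24, beside 0.41, 0.41 and 0.33 over all genes tested. The highest mean of a gene was 1.35 to 12.4 times its lowest line mean, with a median of 4.96. L1 held the highest mean for 8 genes, L24 for 7 and L18 for 2. L18 held the lowest for 9, L1 for 5 and L24 for 3. No line was thus highest or lowest throughout.

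**Figure D3:**
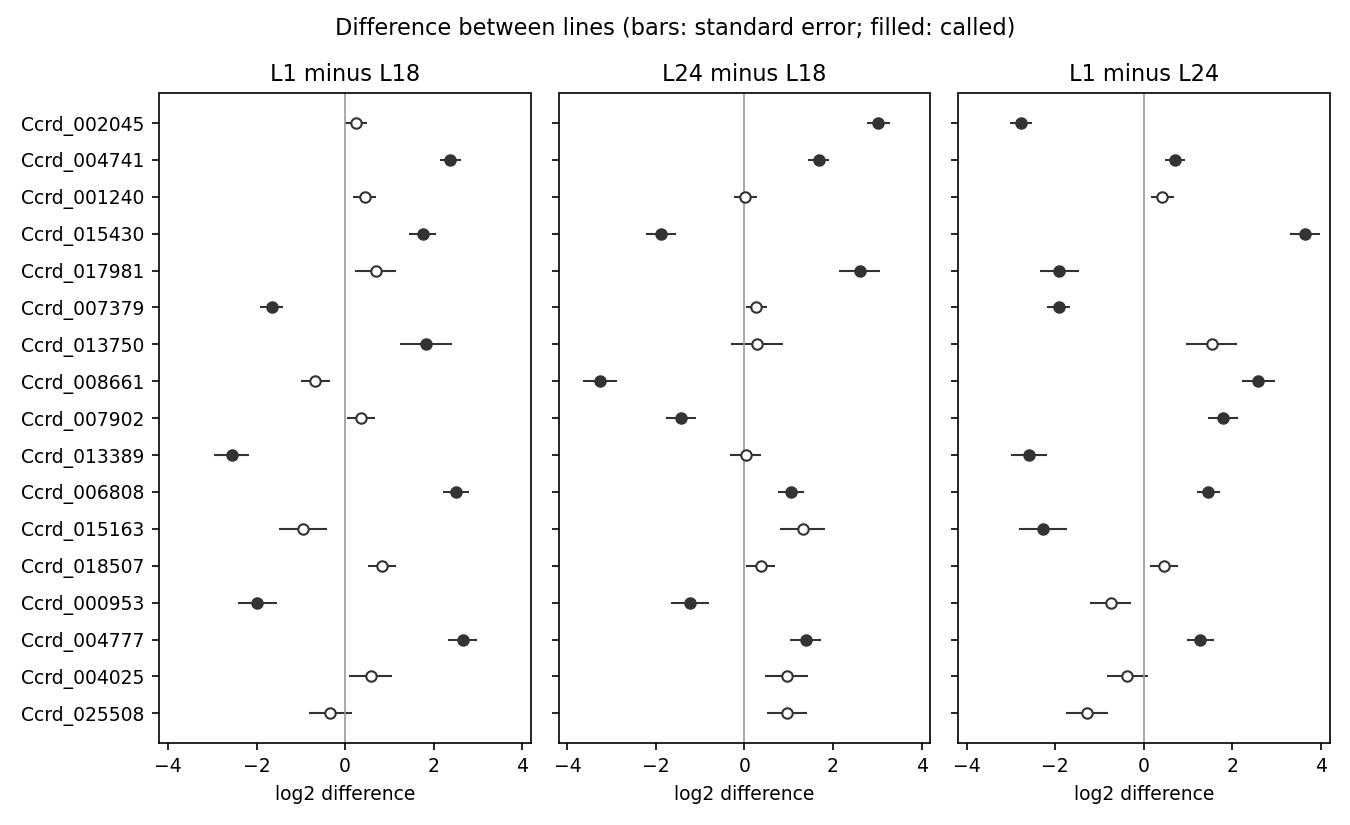
Log2 differences between lines for the 17 genes, 1 panel for each pair, with bars of 1 standard error from the edgeR fit and filled points for adjusted p of 0.05 or less. 8 genes are called between L1 and L18, 9 between L24 and L18 and 11 between L1 and L24, and they lie on both sides of 0 in every panel.

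3 of the 17 genes carry the domain of a DNA-binding regulator. *Ccrd_007379* (scaffold 91, bases 297295 to 298758, minus strand, 3 exons, 696 exonic bases) encodes a protein with a B3 domain, a plant-specific DNA-binding fold found among regulators of seed maturation, auxin response and flowering. Its raw counts were 1, 3 and 0 in WT. It had 56.3, 48.4 and 55.1 normalized counts in L1 (mean ± SD 53.3 ± 4.28), 226, 228 and 152 in L24 (202 ± 43.6) and 152, 190.4 and 161 in L18 (168 ± 19.9). L1 was the low line and did not overlap the others, whereas the ranges of L18 and L24 met. L1 differed from L18 by -1.66 (standard error 0.26, adjusted p = 0.000252) on the log2 scale and from L24 by -1.92 (standard error 0.26, adjusted p = 0.000166), and L24 and L18 differed by 0.27 (standard error 0.24, adjusted p = 0.435), which did not pass. Its FPKM was 5.20 ± 0.434 for L1, 20.4 ± 3.90 for L24 and 16.1 ± 1.34 for L18.

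*Ccrd_000953* (scaffold 4676, bases 12545 to 15865, plus strand, 10 exons, 1886 exonic bases) encodes a homeodomain protein with a lipid-binding term; homeodomain proteins regulate transcription in cell-type and organ formation. WT had 0, 0 and 1 counts. The gene had 26.4, 16.6 and 27.6 normalized counts in L1 (mean ± SD 23.5 ± 6.00), 53.9, 34.3 and 28.6 in L24 (38.9 ± 13.3) and 42.2, 143 and 90.8 in L18 (92.02 ± 50.5). L18 was the highest line and also the most variable, and L24 overlapped it but lay just above L1. L1 differed from L18 by -1.98 (standard error 0.44, adjusted p = 0.00359) on the log2 scale. L24 differed from L18 by -1.23 (standard error 0.43, adjusted p = 0.0416), a call that was lost without L18 replicate 2 (-0.76, adjusted p = 0.214). It was also lost without L1 replicate 1, L18 replicate 3, L24 replicate 2 or L24 replicate 3 (adjusted p = 0.0537 to 0.148). The same held with the samples of these 2 lines alone (0.0731), with the replicate block (0.0791) and on log2(FPKM + 0.1) values (0.0862). L1 and L24 differed by -0.75 (standard error 0.46, adjusted p = 0.28), short of the threshold.

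*Ccrd_018507* (scaffold 5548, bases 12134 to 17914, plus strand, 7 exons, 1457 exonic bases) encodes a K-box protein. The K-box is the stretch through which plant MADS-domain factors pair, and that family is best known for setting the identity of floral organs. It had 1, 0 and 2 counts in WT and 51.8, 86.7 and 78.9 normalized counts in L1 (mean ± SD 72.5 ± 18.3), 56.95, 53.2 and 47.7 in L24 (52.6 ± 4.67) and 44.9, 29.4 and 47.3 in L18 (40.5 ± 9.68). L18 lay just below the other lines, and none of the 3 pairs passed: the log2 difference was 0.83 (standard error 0.32, adjusted p = 0.06) for L1 against L18, 0.37 (standard error 0.33, adjusted p = 0.417) for L24 against L18 and 0.46 (standard error 0.32, adjusted p = 0.344) for L1 against L24. The first of these passed in some other fits, such as the lines without WT (0.0442).

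2 genes encode membrane proteins of transporter type. *Ccrd_001240* (scaffold 729, bases 143003 to 146400, plus strand, 7 exons, 2476 exonic bases) belongs to the oligopeptide transporter (OPT) superfamily, whose members carry small peptides and, in some branches, metal complexes across membranes. It had no count in WT and 293, 508 and 388 normalized counts in L1 (mean ± SD 396 ± 108), 328, 332 and 232 in L24 (298 ± 56.8) and 327, 196 and 358 in L18 (293 ± 86.01). This was the most even of the well-read genes, since the ranges of all 3 lines overlapped and no pair passed (adjusted p = 0.227, 0.964 and 0.302 for L1 with L18, L24 with L18 and L1 with L24). Against a floor of 3 counts in each WT library it was at least 121-fold higher for L1, 90.7-fold for L24 and 89.4-fold for L18. Its FPKM was 10.9 ± 3.26 for L1, 8.46 ± 1.41 for L24 and 8.01 ± 2.64 for L18.

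*Ccrd_013750* (scaffold 3425, bases 17528 to 19363, minus strand, 1 exon, 1836 exonic bases) has a Nodulin-like domain, which occurs in membrane proteins related to the major facilitator transporters. WT had no count. It had 152, 102 and 447 normalized counts in L1 (mean ± SD 234 ± 187), 63.05, 94.1 and 82.6 in L24 (79.9 ± 15.7) and 125, 41.02 and 28.4 in L18 (64.7 ± 52.4). A single sample stood high in L1 and a single one in L18, and every pair of lines overlapped except L1 with L24. At least 71.2-fold, 19.7-fold and 24.4-fold higher levels than the WT floor were measured in L1, L18 and L24. L1 exceeded L18 by 1.83 (standard error 0.58, adjusted p = 0.0305) on the log2 scale. That call rested on L1 replicate 3: without it the difference was 0.96 (adjusted p = 0.191), and it was also lost without L18 replicate 2 (0.092) or L18 replicate 3 (0.0848), with the replicate block (0.0614) and with the samples of these lines alone (0.066). L1 and L24 differed by 1.53 (standard error 0.58, adjusted p = 0.0828) and L24 and L18 by 0.29 (standard error 0.59, adjusted p = 0.747). The first of these passed in some other fits, such as the edgeR exact test (adjusted p = 0.00783).

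The highest mean FPKM of the set was that of a dehydrin gene in L1, while *Ccrd_002045* was highest in L24 (42.8) and *Ccrd_013389* in L18 (34.2). For *Ccrd_013389* FPKM is divided by a short exonic length of 192 bases. By normalized counts it was not the highest in L18, with a mean of 98.8 beside 293 for *Ccrd_001240*. Dehydrins are hydrophilic proteins that accumulate in maturing seeds and in tissues under drought, cold or abscisic acid. *Ccrd_004741* (scaffold 280, bases 227675 to 228398, plus strand, 2 exons, 624 exonic bases) had 3, 2 and 0 counts in WT and 479, 597 and 617 normalized counts in L1 (mean ± SD 564 ± 74.7), 404, 381 and 254 in L24 (346 ± 80.6) and 121, 96.8 and 106 in L18 (108 ± 12.3). Its FPKM was 61.3 ± 6.93 for L1, 38.96 ± 7.72 for L24 and 11.6 ± 1.61 for L18. L1 and L18 were far apart, and L24 lay between them without touching either. L1 exceeded L18 by 2.38 (standard error 0.24, adjusted p = 7.32e-06) on the log2 scale and L24 exceeded L18 by 1.68 (standard error 0.24, adjusted p = 0.000154). L1 exceeded L24 by 0.70 (standard error 0.23, adjusted p = 0.0411), a call that was lost without L24 replicate 3 (adjusted p = 0.177), without WT replicate 2, any L1 replicate, L18 replicate 1 or L24 replicate 2 (0.0507 to 0.12), with the replicate block (0.055) and on log2(FPKM + 0.1) values (0.287). Relative to the summed WT counts, the L1 level was 310.8 times higher (exact 95% interval 132.9 to 958.3, counting error only). The gene was chosen by these same counts, for which the interval makes no allowance, so it is not a test of the rise.

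Alpha-galactosidases release galactose from raffinose-type sugars and from galactomannans, which seeds store and use up when they germinate. *Ccrd_015430* (scaffold 101, bases 33342 to 36686, plus strand, 12 exons, 1725 exonic bases) is annotated with raffinose alpha-galactosidase activity. WT had 1, 2 and 2 counts. It had 278, 416 and 536 normalized counts in L1 (mean ± SD 410.0 ± 129), 19.3, 54.3 and 25.4 in L24 (33.01 ± 18.7) and 143, 97.8 and 124 in L18 (122 ± 22.5). The 3 lines did not overlap, in the order L1, L18, L24. L1 was above L18 by 1.75 (standard error 0.30, adjusted p = 0.000583) and above L24 by 3.64 (standard error 0.34, adjusted p = 9.38e-06) on the log2 scale, the latter the largest difference between lines in the set, and L24 differed from L18 by -1.89 (standard error 0.34, adjusted p = 0.000967). The gene overlaps *Ccrd_015429* on the opposite strand by 255 bases. The sources used here do not say whether counting used strand, so reads in that stretch could belong to either. *Ccrd_015429* averaged 143 normalized counts in WT and 114 to 158 in the lines and was not called in any line.

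*Ccrd_008661* (scaffold 991, bases 23457 to 25234, plus strand, 2 exons, 1678 exonic bases) is described as costunolide synthase, a cytochrome P450 that closes the lactone ring in the making of sesquiterpene lactones, the bitter compounds of the thistle tribe. It had the most WT counts of the set, with 3, 3 and 2. It had 90.9, 157 and 162 normalized counts in L1 (mean ± SD 137 ± 39.7), 31.5, 21.04 and 14.8 in L24 (22.5 ± 8.44) and 119, 302 and 231 in L18 (217 ± 92.02). L24 was low in every sample and did not overlap the other lines. L24 differed from L18 by -3.26 (standard error 0.38, adjusted p = 3.17e-05), and L1 exceeded L24 by 2.59 (standard error 0.38, adjusted p = 0.000319), on the log2 scale. L1 and L18 differed by -0.67 (standard error 0.33, adjusted p = 0.135), which passed without L18 replicate 1 (adjusted p = 0.0278). L24, at 7.81 times the WT level, had the lowest ratio to WT among the genes with a WT count (exact 95% interval 3.74 to 18.9, counting error only). This interval, too, makes no allowance for the choice of the gene by its counts.

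*Ccrd_007902* (scaffold 2, bases 1141770 to 1143734, minus strand, 2 exons, 1552 exonic bases) is described by the C-terminal domain of tubulin, the subunit of microtubules. Its WT counts were 0, 1 and 1. It had 92.7, 147 and 235 normalized counts in L1 (mean ± SD 158 ± 72.02), 52.9, 52.1 and 31.8 in L24 (45.6 ± 11.9) and 103, 149 and 116 in L18 (123 ± 23.8). L24 lay below both other lines without overlap, by a log2 difference of -1.43 (standard error 0.34, adjusted p = 0.00574) from L18, and L1 exceeded L24 by 1.79 (standard error 0.34, adjusted p = 0.00204). L1 and L18 overlapped and differed by 0.36 (standard error 0.31, adjusted p = 0.416).

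*Ccrd_004025* (scaffold 361, bases 209305 to 212375, minus strand, 9 exons, 1539 exonic bases) carries the IPPc domain, the catalytic part of phosphatases that act on inositol polyphosphates and phosphoinositides. It was weakly read throughout, with 3, 2 and 0 counts in WT and 28.2, 39 and 20.04 normalized counts in L1 (mean ± SD 29.1 ± 9.51), 53.9, 32.1 and 28.6 in L24 (38.2 ± 13.7) and 16.1, 11.6 and 31.2 in L18 (19.6 ± 10.3). All lines overlapped and no pair passed (adjusted p = 0.391, 0.15 and 0.629).

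The remaining 7 genes have no named description in the annotation used. *Ccrd_002045* (scaffold 126, bases 112378 to 116276, plus strand, 3 exons, 1571 exonic bases) had 0, 0 and 1 counts in WT and 129.9, 168 and 122 normalized counts in L1 (mean ± SD 139.7 ± 24.5), 1210.0, 739.9 and 925 in L24 (958 ± 237) and 89.7, 107 and 158 in L18 (118 ± 35.5). L24 was high in all 3 samples, far from L1 and L18, which overlapped. L24 exceeded L18 by 3.02 (standard error 0.26, adjusted p = 2.52e-06), and L1 differed from L24 by -2.77 (standard error 0.25, adjusted p = 7.46e-06), on the log2 scale. L1 and L18 differed by 0.25 (standard error 0.25, adjusted p = 0.489).

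*Ccrd_017981* (scaffold 41, bases 318394 to 319809, minus strand, 2 exons, 674 exonic bases) was likewise highest in L24. WT had 3, 0 and 0 counts, and the gene had 53.6, 70.1 and 115 normalized counts in L1 (mean ± SD 79.6 ± 31.9), 430.2, 224 and 234 in L24 (296 ± 116) and 23.3, 80.99 and 43.5 in L18 (49.3 ± 29.3). L24 did not overlap the other lines. It exceeded L18 by 2.60 (standard error 0.46, adjusted p = 0.000781), and L1 differed from L24 by -1.91 (standard error 0.44, adjusted p = 0.00718), whereas L1 and L18 differed by 0.69 (standard error 0.46, adjusted p = 0.277).

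*Ccrd_015163* (scaffold 256, bases 72990 to 73361, plus strand, 1 exon, 372 exonic bases), described as uncharacterized, had 3, 0 and 0 counts in WT and 29.99, 28.9 and 13.8 normalized counts in L1 (mean ± SD 24.2 ± 9.06), 187, 40.98 and 132 in L24 (120.2 ± 73.8) and 35.9, 39.97 and 68.1 in L18 (48 ± 17.6). L24 was highest by its mean, but its 3 samples were far apart and the lowest of them fell inside the L18 range. L1 differed from L24 by -2.28 (standard error 0.54, adjusted p = 0.00835), and the L24 difference from L18 was 1.32 (standard error 0.51, adjusted p = 0.0631), which did not pass. The latter passed in some other fits, such as the edgeR exact test (adjusted p = 0.0383).

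The largest gene of the set, *Ccrd_006808* (scaffold 158, bases 310751 to 346902, minus strand, 29 exons, 8565 exonic bases), carries a protein-binding term and was by contrast highest in L1. WT had 0, 3 and 3 counts. It had 145, 131 and 142 normalized counts in L1 (mean ± SD 139.5 ± 7.20), 48.8, 54.3 and 48.7 in L24 (50.6 ± 3.18) and 25.1, 25.2 and 22.7 in L18 (24.4 ± 1.43), with little spread between replicates. Its FPKM was 1.11 ± 0.0812 for L1, 0.418 ± 0.0407 for L24 and 0.190 ± 0.00648 for L18, FPKM being divided by a long exonic length here. The 3 lines did not overlap, in the order L1, L24, L18. L1 exceeded L18 by 2.51 (standard error 0.29, adjusted p = 1.99e-05) and L24 by 1.46 (standard error 0.27, adjusted p = 0.0018) on the log2 scale, and L24 exceeded L18 by 1.05 (standard error 0.29, adjusted p = 0.0149). The last call was lost on log2(FPKM + 0.1) values, where the difference was 0.83 (adjusted p = 0.0601), and on log2(FPKM + 1) values, where it was 0.25 (adjusted p = 0.102).

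*Ccrd_004777* (scaffold 81, bases 330380 to 330901, plus strand, 1 exon, 522 exonic bases) showed the same order of lines at shorter length. It had 1, 2 and 0 counts in WT and 83.6, 104 and 93.9 normalized counts in L1 (mean ± SD 93.8 ± 10.2), 42.7, 43.2 and 29.7 in L24 (38.5 ± 7.68) and 13.5, 13.7 and 17.03 in L18 (14.7 ± 2.00). L18 was just above the minimum, and all lines were apart. L1 exceeded L18 by 2.66 (standard error 0.33, adjusted p = 3.57e-05) and L24 by 1.28 (standard error 0.30, adjusted p = 0.00809), and L24 exceeded L18 by 1.38 (standard error 0.34, adjusted p = 0.00685).

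In *Ccrd_013389* (scaffold 5690, bases 17813 to 18358, plus strand, 2 exons, 192 exonic bases), the shortest gene of the set, L1 was the low line. It had no count in WT and 16.4, 15.2 and 18.8 normalized counts in L1 (mean ± SD 16.8 ± 1.84), 85.4, 149.5 and 67.8 in L24 (101 ± 43.01) and 65.5, 142 and 88.95 in L18 (98.8 ± 39.2). L18 and L24 overlapped and lay well above L1, which differed by -2.56 (standard error 0.40, adjusted p = 0.000423) from L18 on the log2 scale and from L24 by -2.59 (standard error 0.40, adjusted p = 0.000797). Against the WT floor it was at least 5.11-fold higher for L1, 30.7-fold for L24 and 30.1-fold for L18.

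*Ccrd_025508* (scaffold 4006, bases 28818 to 31247, plus strand, 2 exons, 453 exonic bases) also had no WT count. It had 19.99, 14.4 and 18.8 normalized counts in L1 (mean ± SD 17.7 ± 2.92), 58.98, 21.04 and 49.8 in L24 (43.3 ± 19.8) and 12.6, 22.1 and 32.2 in L18 (22.3 ± 9.81). L24 lay just above L1 and both overlapped L18, and no pair passed (adjusted p = 0.642, 0.136 and 0.0717). L1 with L24 passed in some other fits, such as the edgeR exact test (adjusted p = 0.0204), and L24 with L18 passed without L24 replicate 2 (0.0496). The gene was above the WT floor by at least 5.40-fold for L1, 13.2-fold for L24 and 6.79-fold for L18.

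By function the set was mixed. 10 of the 17 genes have a named description, 1 is described as uncharacterized and 6 have none. Sorted by keyword, 3 were classed under transcription factors, 2 under transport and 1 under seed proteins and the glyoxylate cycle. None came under cell wall, specialised metabolism, hormone, lipid, defence or photosynthesis keywords, costunolide synthase not being caught by those words. Descriptions were at hand for 2633 genes only, all from a partial copy of the study's list of genes changed in L1, so these counts are of a selected and incomplete population. Among those 2633 genes the transcription factor keywords caught 237, of which 28 were at or below the WT ceiling, and the seed keywords caught 35, of which 9 were.

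The median exonic length of the 17 genes was 1539 bases, beside 1294 for all genes, 1481 for those tested and 1560 for the 17045 genes with at least 10 counts in every line sample. Lengths ran from 192 bases in *Ccrd_013389* to 8565 in *Ccrd_006808*. Genes with few exons made up much of the set. The median was 2 exons, beside 4 over all genes and 5 over those tested, and 11 of 17 (64.7%) had at most 3 exons, beside 44.2% of all genes and 38.2% of those tested. Single-exon genes were 3 of the 17 (17.6%), beside 14.5%, and genes with exactly 2 exons were 6 (35.3%), beside 16.8%. 7 genes (41.2%) were under 700 exonic bases, beside 22.0% of all genes and 9.91% of those with at least 10 counts in every line sample. A minimum count is reached less easily by a short gene, and the last group met the same minimum. A ceiling on the WT count is met more easily by a short gene, and the last group did not have to meet it. The shares are thus not those of genes chosen alike. The 4 genes with the most exons were *Ccrd_006808* with 29 exons, *Ccrd_015430* with 12, *Ccrd_000953* with 10 and *Ccrd_004025* with 9. Differences in structure were described and not tested.

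**Figure D4:**
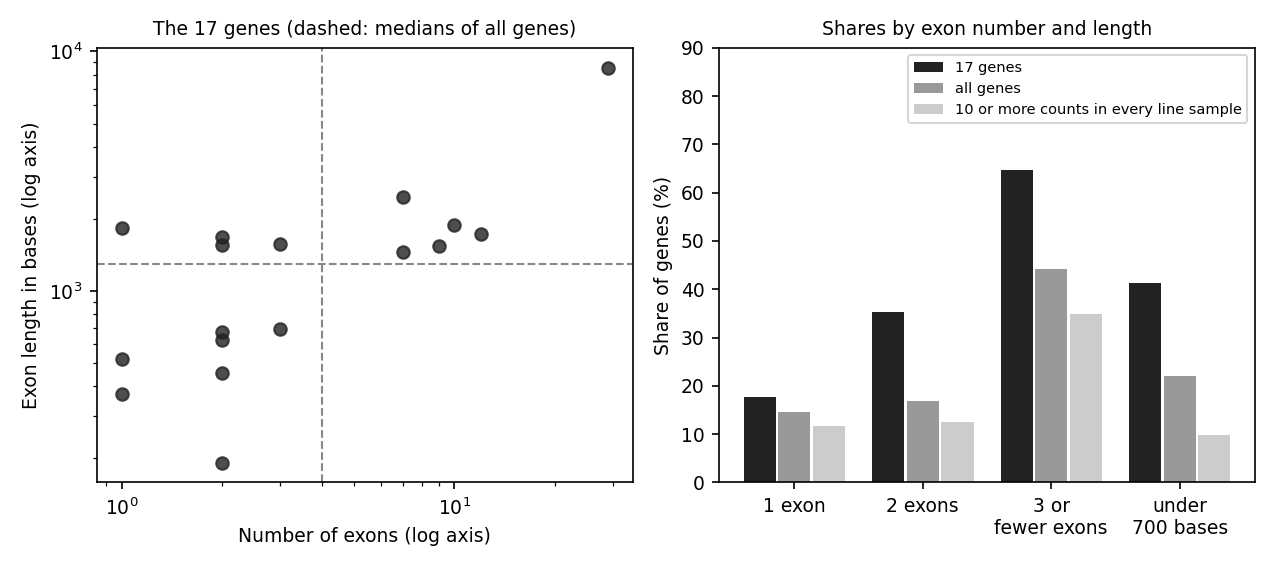
Left, exonic length in bases against exon number, both on log axes, for each of the 17 genes, with dashed lines at the medians of all 26505 genes (1294 bases, 4 exons). Right, the share in percent of the 17 genes, of all genes and of the genes with at least 10 counts in every line sample that have 1 exon, 2 exons, 3 or fewer exons (64.7%, 44.2% and 34.8%) or under 700 exonic bases (41.2%, 22.0% and 9.91%).

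The 17 genes lay on 17 different scaffolds, so no scaffold held more than 1. Those scaffolds carry between 1 and 114 genes. *Ccrd_018507* is alone on its scaffold, and *Ccrd_000953* and *Ccrd_013750* share theirs with 1 other gene each. The closest pair by identifier was *Ccrd_004741* and *Ccrd_004777*, 36 identifiers apart but on scaffolds 280 and 81. The next gap was 267 identifiers. No gene of the set thus had another within 10 identifiers. The assembly is fragmented, and distances between scaffolds are not known from these files.

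The genes next to the 17 were compared with WT, which the rule did not use for them. There were 28 immediate neighbours on the same scaffolds, of which 21 were tested. In L1, 7 of the 21 rose (33.3%) and 2 fell (9.52%), beside 19.3% higher and 20.4% lower over all tested genes. In L18, 4 rose and 1 fell, beside 12.4% and 12.8%. In L24, 6 rose (28.6%) and 2 fell, beside 19.3% and 20.7%. The median log2 difference from WT was 0.16 for L1, 0.40 for L24 and 0.21 for L18, beside 0.01 to 0.02 over all genes tested. The 3 comparisons share the WT samples. With 3 neighbours on each side, 14 of 54 rose in L1 (25.9%) and 9 fell (16.7%). In L18 11 rose (20.4%) and 3 fell (5.56%), and in L24 13 rose (24.1%) and 5 fell (9.26%). In L1 and L24 the shares that rose were nearer to those over all tested genes than for the immediate neighbours.

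3 neighbours rose in all lines, and these are named after their values were seen. *Ccrd_017982*, a peroxidase gene, lies 8491 bases before *Ccrd_017981* (scaffold 41, bases 303018 to 309902, plus strand). It had 89.5, 45.4 and 64.2 normalized counts in WT, 12000, 7607 and 11350 in L1, 2274, 1964 and 2944 in L18 and 4298, 10380 and 3023 in L24. L1 exceeded WT by 7.29 on the log2 scale (standard error 0.49, adjusted p = 1.67e-07), L24 by 6.48 (0.48, adjusted p = 3.85e-07) and L18 by 5.18 (0.45, adjusted p = 2.97e-06). Its order of lines was not that of *Ccrd_017981*, which was highest in L24.

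*Ccrd_013390*, a proteinase inhibitor of family I13, begins 4246 bases after *Ccrd_013389* (scaffold 5690, bases 22605 to 23116, plus strand). Both genes had L1 as the low line. The inhibitor had 131, 43.4 and 39.6 normalized counts in WT, 255, 299 and 210.4 in L1, 2634, 9579 and 4634 in L18 and 4880, 5476 and 3835 in L24. It exceeded WT by 1.86 on the log2 scale in L1 (standard error 0.48, adjusted p = 0.00684), by 6.32 in L18 (0.54, adjusted p = 2.45e-06) and by 6.07 in L24 (0.53, adjusted p = 1.7e-06).

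*Ccrd_025507*, with a protein kinase domain, is the neighbour of *Ccrd_025508* at 7769 bases (scaffold 4006, bases 10249 to 21048, plus strand). It had 7 raw counts in 1 WT sample and 0 in the other 2, so it missed the ceiling of the rule in that sample alone. Its lines had 75.4, 78.0 and 61.4 normalized counts in L1, 46.7, 78.9 and 151 in L18 and 177, 83.1 and 137 in L24. L24 exceeded WT by 5.65 on the log2 scale (standard error 0.71, adjusted p = 3.47e-05), L18 by 5.13 (0.72, adjusted p = 0.000161) and L1 by 4.78 (0.73, adjusted p = 0.000166).

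**Figure D5:**
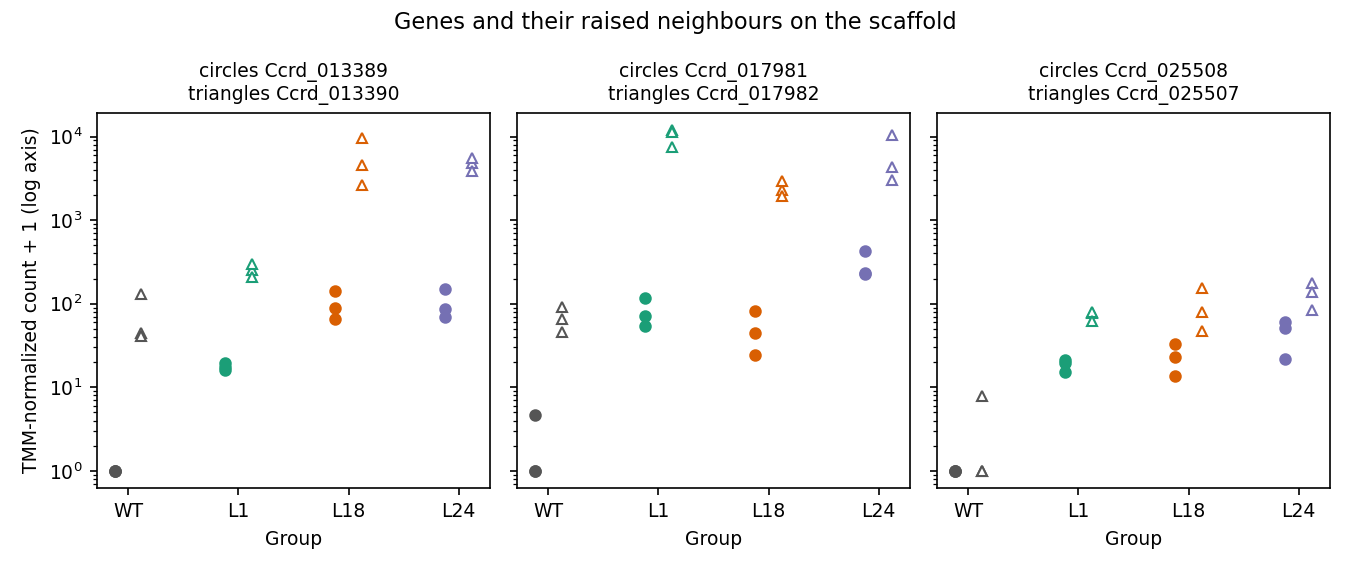
Normalized count + 1 on a log axis in each of the 12 samples, by group, for 3 members of the set (circles) and the neighbour of each that was called higher than WT in every line (triangles). The neighbours had more counts than the member beside them in every line, and *Ccrd_013389* and *Ccrd_013390* are both lowest among the lines in L1.

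Other neighbours were called higher in 1 or 2 lines, called lower or not called. *Ccrd_007901*, next to *Ccrd_007902*, rose from 233 normalized counts in WT by 0.94 on the log2 scale in L1 and 1.13 in L24 (adjusted p = 0.00697 and 0.00211), while its difference of 0.26 in L18 did not pass (adjusted p = 0.484). *Ccrd_015162*, with a CYC/TB1 domain and next to *Ccrd_015163*, had no count in WT or L18 and averaged 14.3 normalized counts in L1, where it was called higher (adjusted p = 0.00906), and 5.38 in L24, where it was not (adjusted p = 0.0525). *Ccrd_004026*, a gene with a STAS domain beside *Ccrd_004025*, fell in every line, with log2 differences from WT of -3.71 in L1 (adjusted p = 4.19e-05), -4.08 in L24 (2.74e-05) and -2.35 in L18 (0.00133). The genes on both sides of the dehydrin, *Ccrd_004740* and *Ccrd_004742*, averaged 1120 and 2150 normalized counts in WT and were not called in any line.

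The edge of the set was thinly drawn. Just inside it, *Ccrd_004025* and *Ccrd_015163* had a lowest line count of 11, and 7 genes had 3 counts in at least 1 WT sample. Just outside it were *Ccrd_004951* (AAA+ ATPase domain), *Ccrd_013270* (glycosyltransferase) and *Ccrd_014374* (mannan mannosidase), which met the WT ceiling with a lowest line count of 9. On the WT side, *Ccrd_025243* (cytochrome P450) reached 4 counts in a WT sample with at least 53 in every line sample, *Ccrd_008375* (Fe2OG dioxygenase domain) 4 with at least 44, and *Ccrd_003971* (cytokinin dehydrogenase, which breaks down cytokinins) 4 with at least 34.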

How the data were processed

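RNA-seq was done on 12 callus samples, 3 each of WT, L1, L18 and L24. The authors trimmed reads with BBDuk, aligned them to the CcrdV1 assembly with STAR and deposited raw counts per gene and a second table of FPKM; recomputing FPKM from the deposited counts and exon lengths returned the same values. The counter and its strand setting are not given in the sources used here. Genes were filtered on normalized counts by the Jaccard index (threshold 10.5), which left 20024 of 26505. Counts were scaled by TMM and tested in 1 fit over the 4 groups with edgeR 4.0.16 (quasi-likelihood F test, Benjamini-Hochberg over all genes tested, adjusted p of 0.05) in R 4.3.3. Normalized counts are counts per library scaled to the mean effective library size. Against a WT at 0 a fold was set on a floor of 3 counts per library; otherwise it is the ratio of summed counts with an exact 95% interval. Intervals and floors cover counting error only and make no allowance for the choice of the genes by these counts.

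The scripts were tested on simulated counts. The alternatives were other filters and scalings, DESeq2 1.42.0, the edgeR exact test, limma 3.58.1 on log2(FPKM + 1) and log2(FPKM + 0.1), fits on fewer groups, a replicate block, other thresholds of the rule and leaving out each sample. Figures were drawn with matplotlib 3.10.9. The members, the rule and the keyword lists were chosen with earlier results of these data known. All 17 members are named; other genes are named as neighbours or as genes just outside the thresholds. Descriptions came from a partial copy of the study's table of genes changed in L1, and the values in its comparison columns were not used. None of the 17 members was matched to the RefSeq gene table, and no sequence is printed. Nothing in the labels says that replicates are separate cultures, so p-values measure the spread between these samples, which may be technical.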

Additional observations from a re-analysis of the deposited data

Results flagged for a closer look

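Some of the genes that were silent in WT reached levels that differed between lines, each by a test of the difference between the lines. Between L1 and L18, 8 of the 17 genes differed (47.1%), beside 33.0% of all genes tested. Between L24 and L18 it was 9 (52.9%), beside 30.7%. The share stood furthest from that of all genes for L1 with L24, with 11 (64.7%) beside 20.6%. Whether the shares of the set exceed those of all genes was not tested. The proteinase inhibitor gene *Ccrd_013390* differed in its rise over WT, by -4.46 on the log2 scale between L1 and L18 (adjusted p = 1.22e-05) and by -4.21 between L1 and L24 (adjusted p = 4.05e-05), with L1 the lower line in both. The peroxidase gene *Ccrd_017982* rose further in L1 than in L18, by 2.11 on the log2 scale (adjusted p = 0.000748), and further in L24 than in L18, by 1.30 (adjusted p = 0.0163). A single L24 sample stood high, at 10380 normalized counts beside 4298 and 3023. The lowest L24 sample lay just above the highest in L18 (2944). Groups hold 3 samples, so single samples were not tested as outliers.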

How the results depend on the processing

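The number of genes in the set depends on its thresholds. With a WT ceiling of 0 counts it was 4, with 1 count 7 and with 5 counts 41, and with a line minimum of 5 counts it was 42 and of 20 counts 10. On TMM-normalized counts 11 genes met the rule. A rule on FPKM, at most 0.1 in WT and at least 0.3 in the lines, also gave 17 genes but only 9 of the same ones. Leaving out 1 sample gave 17 to 32 genes; WT replicate 2 decided most, with 32 genes without it, and without WT replicate 1 there were 27. The median exonic length was 1571 bases with a WT ceiling of 1, 1561.5 with a line minimum of 20 and 1339 with the excluded runs kept in. The median exon number was 3 with a line minimum of 20 and 2.5 with the runs kept in, and the share of single-exon genes 10.0% and 15.0% there and 14.3% with a WT ceiling of 1. Over 23 other settings the members called were 7 to 9 between L1 and L18, 7 to 10 between L24 and L18 and 10 to 13 between L1 and L24, and 7 of 8, 7 of 9 and 10 of 11 calls were kept in every setting. No called difference changed sign. Of those not called, leaving out 1 sample turned *Ccrd_007902* (L1 with L18, -0.03 to 0.63), *Ccrd_025508* (L1 with L18, -0.63 to 0.04), *Ccrd_001240* (L24 with L18, -0.20 to 0.19), *Ccrd_013389* (L24 with L18, -0.36 to 0.39) and *Ccrd_013750* (L24 with L18, -0.06 to 1.20); the cause was not tested. Replicate numbers were not shown to pair the samples, since deviations of same-numbered samples correlated over 0.1 in 6 of 18 pairs, all 3 of WT with L24 among them; with the replicate block 7, 8 and 10 members were called between L1 and L18, L24 and L18, and L1 and L24. In the WT libraries the ceiling of 3 counts equals 2.96 to 3.68 normalized counts, and levels below it are not resolved at this depth.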

Other observations

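Genes with the description of a member, or with one of the same gene family, varied in WT level and in direction. They come from a partial copy of the list of genes changed in L1, so they are selected and not a full list of relatives. A pair of them was also near 0 in WT and called higher in every line. The IPPc gene *Ccrd_000409*, inside an excluded run, had no count in WT and averaged 3306 normalized counts in L1, 110.2 in L24 and 10.1 in L18 (adjusted p = 9.14e-08, 1.42e-05 and 0.0127). The MADS-box gene *Ccrd_012257* averaged 0.409 in WT, 11.5 in L1, 11.5 in L24 and 7.49 in L18 (adjusted p = 0.0019, 0.00187 and 0.0109). The other MADS-box and K-box genes went both ways, for example *Ccrd_015131*, which averaged 303 in WT and 58.2, 0.678 and 3.97 in L1, L24 and L18 and was called lower in each (adjusted p = 0.000233, 5.61e-07 and 1.99e-06).

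The B3 gene *Ccrd_013325* rose by 2.61 on the log2 scale in L18 and 2.28 in L24 (adjusted p = 0.00128 and 0.00209), with 1.32 in L1 (adjusted p = 0.0511), while *Ccrd_023440* rose by 1.20 in L1 and 1.71 in L24 and had -0.67 in L18 (adjusted p = 0.000455, 2.81e-05 and 0.035). The tubulin beta gene *Ccrd_002518* rose by 1.19 in L1 and 1.47 in L18 (adjusted p = 0.00232 and 0.000946), with 0.22 in L24 (adjusted p = 0.513). Of the other dehydrin genes, *Ccrd_014315* averaged 4577 normalized counts in WT and fell in every line, with log2 differences of -1.88 for L1 (adjusted p = 0.000314), -1.02 for L24 (0.0161) and -1.78 for L18 (0.000846). *Ccrd_012817* also fell, with -1.80 for L1, -2.71 for L24 and -5.21 for L18 (adjusted p = 0.00881, 0.000883 and 5.85e-05), while *Ccrd_018838* rose in L1 by 2.22 (adjusted p = 0.0127) and had differences of 0.13 and 0.41 in L18 and L24 that did not pass. A second alpha-galactosidase gene in the copy, *Ccrd_014578*, averaged 477 normalized counts in WT, fell by 1.24 in L1, changed by -0.85 in L24 and rose by 0.62 in L18 (adjusted p = 0.000406, 0.0054 and 0.0394).

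8 other oligopeptide transporter genes in the copy went both ways. *Ccrd_002646* rose in every line, by 3.91, 2.81 and 2.33 in L1, L18 and L24 (adjusted p = 2.45e-07, 6.96e-06 and 1.77e-05), and so did *Ccrd_026682*, by 2.37, 3.75 and 5.20 (adjusted p = 0.00429, 0.000219 and 7.91e-06). *Ccrd_014021*, the most read of them with 8372 normalized counts in WT, fell, with -1.72, -1.03 and -2.48 (adjusted p = 1.32e-05, 0.00133 and 8.27e-07). Among the Nodulin-like genes, *Ccrd_021597* rose from 4.95 normalized counts in WT by 6.36 in L1 and 6.18 in L24 (adjusted p = 6e-07 and 8.71e-07), while its difference of 1.76 in L18 did not pass (adjusted p = 0.0552). *Ccrd_008194* fell, with -1.98 in L1 and -3.81 in L18 (adjusted p = 0.026 and 0.0033), and had 0.29 in L24 (adjusted p = 0.704). *Ccrd_012306* rose in L1 by 1.50 (adjusted p = 0.000236) and changed by -0.99 in L24 (adjusted p = 0.00567), with -0.10 in L18 (adjusted p = 0.805).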
